A study of Mus musculus with 5 samples.

Results

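The 8 genes described here, Egfl7, Eng, Tie1, Esam, Tek, Robo4, Pecam1 and Emcn, encode surface or secreted proteins of vascular endothelium that haematopoietic stem cells (HSCs) also express. They were chosen by name, with earlier results of these data known. All 8 were present among the 11643 genes of the deposited expression table. All 8 averaged 1 FPKM or more across samples, the minimum for testing that 10570 genes met. FPKM is fragments scaled to transcript length and to the library total, so levels can be compared between genes.

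HSCs arise in the embryo from haemogenic endothelium, and they keep part of the endothelial surface programme in the adult marrow. The angiopoietin receptor TEK and its relative TIE1 are receptor tyrosine kinases, endoglin (Eng) is a TGF-beta and BMP co-receptor, and ROBO4 is the vascular member of the roundabout family. PECAM1 and ESAM are immunoglobulin-type adhesion molecules of cell junctions and platelets, EMCN (endomucin) is a sialomucin, and EGFL7 is a secreted protein with EGF-like domains.

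RNA was sequenced from HSCs of C57BL/6 mouse bone marrow, sorted for c-Kit, Sca-1 and CD150 and against lineage markers and CD48. There were 2 libraries labelled Tle1/3/4-deficient, from mice with floxed Tle1, Tle3 and Tle4 and the Vav-Cre recombinase, which acts throughout the blood system, and 3 control libraries. TLE proteins are co-repressors recruited to DNA by factors such as the RUNX, TCF/LEF and HES families, and the comparison addresses how their loss alters HSC expression. The control titles carry the tag VavC, which these sources do not explain, and give no further genotype. The ages of the mice and whether replicates came from separate or pooled animals are not given in these sources. The p-values therefore cover the spread between samples, which may be technical.

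Total reads are unknown. Relative to control replicate 1, an estimate of depth from low values shared between libraries was between 1.11 and 1.46 in the other libraries, resting on 8 to 36 genes each. Exact values of 0 were listed for 656 to 1438 genes per library, and a 0 can be a failed estimate. Among the targeted genes, the level of Tle3 ran against the label, at 32.3 and 31.6 FPKM in deficient-labelled samples and at 2.48, 4.97 and 5.61 FPKM in the controls. Tle4 was at 0.353 and 0.203 FPKM in deficient-labelled samples and at 5.67, 0.0129 and 5.29 FPKM in the controls. Tle1 was at 2.84 and 4.37 FPKM in deficient-labelled samples and at 1.83, 0.811 and 3.33 FPKM in the controls. Gene-level values include exons outside a floxed part and check the deletion only in part, and every direction below follows the labels. Kit, the receptor used in the gate, was at 102.3 and 101.6 FPKM in deficient-labelled samples and 165.1, 185.0 and 148.6 FPKM in the controls. Ly6a (Sca-1) was at 155 and 14.0 FPKM in deficient-labelled samples, the second below the control range of 57.8 to 199 FPKM. In the same deficient-labelled replicate 2, Cd48, which the gate excludes, was at 23.4 FPKM, above the control range of 3.22 to 13.0 FPKM. Slamf1 (CD150), which the gate selects, was at 31.8 and 31.0 FPKM in deficient-labelled samples, above controls at 14.9, 24.0 and 21.1 FPKM.

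Egfl7, Emcn and Eng had the lowest fold changes of the group, and their upstream regions are shown to place the genes, beside that of Tek, whose groups overlapped. The regions are the 250 bases before a RefSeq transcript start on GRCm38.p6, a later mouse build than the mm9 build named for the data. RefSeq had an entry for 6 of the 8 genes, and Egfl7 had 3 starts, of which the first and second are shown. Capitals mark matches, on either strand, to any of 7 motifs: for ETS factors the motifs CCGGAA and, as another ETS form, CAGGAA, for GATA factors the motif AGATAA, for RUNX factors the motif TGTGGT, for TCF/LEF factors the motif CTTTGA, for HES and other bHLH factors the motif CACGTG, and for TAL1 and other bHLH factors the motif CAGATG.

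Egfl7, first start, chr2:26580833-26581082, plus strand: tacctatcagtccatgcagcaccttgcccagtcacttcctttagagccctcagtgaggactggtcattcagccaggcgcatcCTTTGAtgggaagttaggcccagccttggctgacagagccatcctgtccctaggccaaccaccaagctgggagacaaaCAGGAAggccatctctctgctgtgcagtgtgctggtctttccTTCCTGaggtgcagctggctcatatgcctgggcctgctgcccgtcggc
Egfl7, second start, chr2:26583615-26583864, plus strand: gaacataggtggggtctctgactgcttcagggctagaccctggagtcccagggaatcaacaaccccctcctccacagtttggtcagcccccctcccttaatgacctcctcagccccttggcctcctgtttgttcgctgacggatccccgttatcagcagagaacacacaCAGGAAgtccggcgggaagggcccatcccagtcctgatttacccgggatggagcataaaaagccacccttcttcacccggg
Emcn, chr3:137340828-137341077, plus strand: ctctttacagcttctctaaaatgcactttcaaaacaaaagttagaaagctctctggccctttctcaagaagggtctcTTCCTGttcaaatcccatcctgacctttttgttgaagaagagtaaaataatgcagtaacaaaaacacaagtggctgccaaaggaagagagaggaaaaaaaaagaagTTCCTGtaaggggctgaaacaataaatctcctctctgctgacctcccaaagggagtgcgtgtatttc
Eng, chr2:32646345-32646594, plus strand: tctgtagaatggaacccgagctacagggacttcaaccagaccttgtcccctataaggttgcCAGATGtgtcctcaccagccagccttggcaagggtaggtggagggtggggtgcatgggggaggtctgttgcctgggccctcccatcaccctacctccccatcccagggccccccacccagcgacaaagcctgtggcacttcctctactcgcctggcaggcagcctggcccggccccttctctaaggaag
Tek, chr4:94739039-94739288, plus strand: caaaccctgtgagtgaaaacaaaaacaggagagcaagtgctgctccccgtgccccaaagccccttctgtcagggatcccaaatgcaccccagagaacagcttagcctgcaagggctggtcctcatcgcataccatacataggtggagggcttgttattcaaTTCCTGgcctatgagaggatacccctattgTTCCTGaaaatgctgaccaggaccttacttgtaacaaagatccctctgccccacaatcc

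The motif shared by most of the windows was CAGGAA, the ETS form, found in 6 of the 8 windows of the 6 genes, against 25.7% of 32851 RefSeq windows of the same length. It stood 90 and 48 bases before the first Egfl7 start, 81 bases before the second, 173 and 67 bases before the Emcn start and 89 and 59 bases before the Tek start. It was also in the windows of Tie1 and Robo4, and not in that of Eng or the third Egfl7 start. In the GENCODE M21 annotation, 212 of the 250 bases of the Tie1 window and 75 of the Robo4 window lie in exons. Each of the other windows holds 27 such bases or fewer. CTTTGA, the TCF/LEF form, was in 2 windows, those of the first Egfl7 start and of Robo4, against 13.8% of all windows. CAGATG was in 2, those of Eng and Tie1, against 14.4% of all windows. The CCGGAA form, the GATA motif, the RUNX motif and the HES motif were in none of the 8 windows, against 12% (CCGGAA), 9.99% (GATA), 14% (RUNX) and 6.02% (HES) of all windows. No match overlapped another. These are matches of letters within short windows, and the genes whose groups overlapped (Tek, Robo4) carried the ETS form as did Egfl7 and Emcn.

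Egfl7 is also the host gene of the microRNA miR-126a, a regulator of HSC quiescence and of vessels, whose hairpin lies inside the gene. Its mature 3-prime arm, from RefSeq at chr2:26591402-26591423 on the plus strand of GRCm38.p6, is printed with its seed, bases 2 to 8, in capitals. The microRNA itself was not measured here.

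mmu-miR-126a-3p: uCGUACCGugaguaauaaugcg

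None of the 8 genes passed the threshold of an adjusted p of 0.05 over all genes tested (limma, Benjamini-Hochberg), which 2 of 10570 genes (0.0189%) passed. Both deficient-labelled libraries lay below every control for 4 of the 8, Egfl7, Eng, Tie1 and Emcn, where 15.9% of all genes tested did so. None of the 8 lay above every control, where 10.2% of all genes did. At an unadjusted p of 0.05, 3 of the 8 were lower in deficient-labelled samples (Egfl7, Eng and Emcn), against 5.18% of all genes, and none was higher, against 3.26% of all genes. The log2 fold change, given throughout as deficient-labelled minus control on the log2(FPKM + 1) scale, was negative for 7 of 8, against 55.7% of all genes. Its median over the 8 was -0.84, and -0.97 without Esam, against -0.10 over all genes. Because the 8 were chosen with earlier results of these data known, these comparisons with all genes are a description and not a test. RNA was measured in bulk, so fewer cells expressing a gene and less RNA per cell cannot be told apart.

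**Figure D1:**
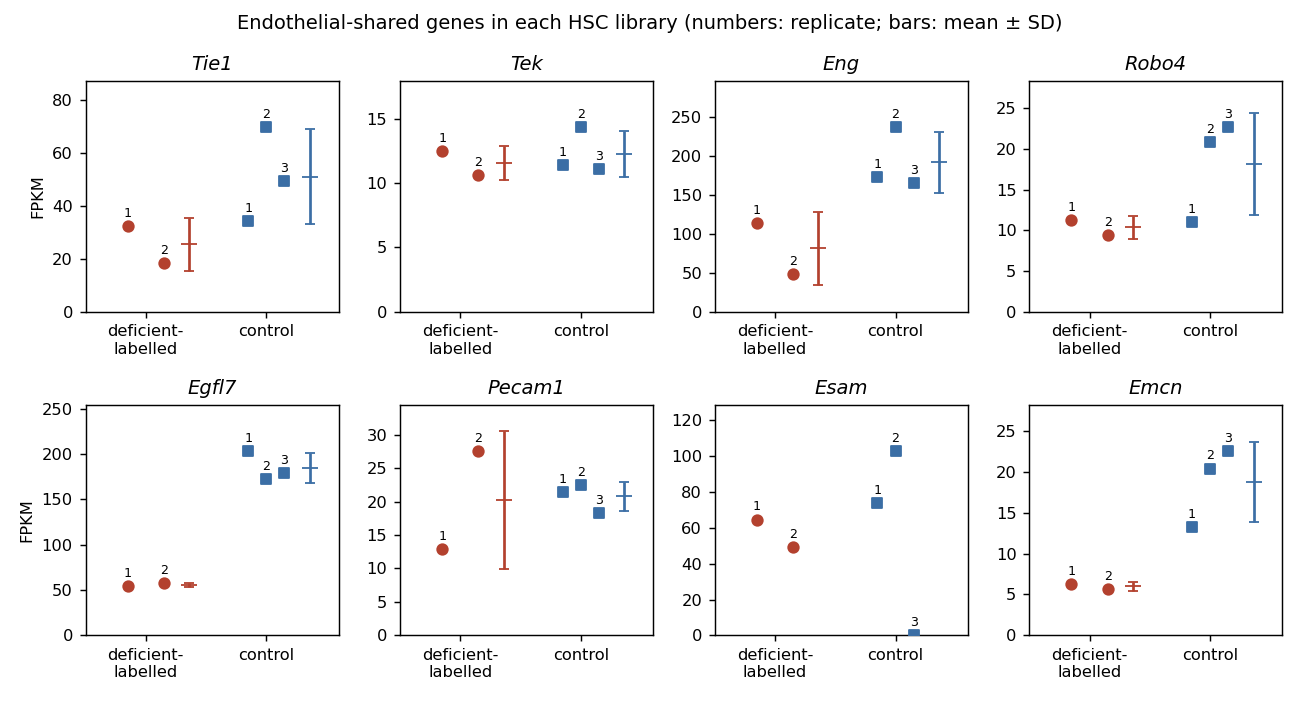
FPKM of each of the 8 genes in the 2 deficient-labelled (red circles) and 3 control (blue squares) libraries, numbered by replicate, with the mean and SD of each group beside the points (none for Esam, which is listed at 0 in control replicate 3). Egfl7, Eng, Tie1 and Emcn have both deficient-labelled libraries below every control, while Tek, Pecam1 and Robo4 overlap.

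Among the receptor tyrosine kinases, Tie1, an orphan receptor that modulates TEK signalling, and Tek, the receptor for angiopoietins, gave different pictures. Tie1 was at 32.5 and 18.4 FPKM in deficient-labelled samples, against 34.3, 69.7 and 49.2 FPKM in the controls. The groups did not overlap, but deficient-labelled replicate 1 and control replicate 1 were close. For Tie1 the log2 fold change was -0.97 (SE 0.44, limma, adjusted p = 0.606), and it was -0.58 without deficient-labelled replicate 2 and -1.37 without deficient-labelled replicate 1. Tie1 lost its place below every control after median-of-ratios scaling. Tek was at 12.5 and 10.7 FPKM in deficient-labelled samples, against 11.4, 14.4 and 11.1 FPKM in the controls. The Tek libraries were interleaved, with a log2 fold change of -0.075 whose 95% interval ran from -1.24 to 1.09 (limma, adjusted p = 0.977). The sign of that value turned positive under both scaling alternatives, at 0.043 with median-of-ratios scaling and 0.024 with quantile normalization. The ratio of Tie1 to Tek within a library, which does not depend on library scaling, was 2.59 and 1.73 in deficient-labelled samples, against 3.00, 4.85 and 4.42 in the controls, so the groups did not overlap. That ratio was chosen after the values were seen and was not tested.

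The angiopoietin ligand Angpt1, which HSCs themselves transcribe, was at 131.6 and 65.8 FPKM in deficient-labelled samples, against 144.1, 109.0 and 91.2 FPKM in the controls (log2 fold change -0.27, limma, adjusted p = 0.865). One deficient-labelled value was within the control range and the other below it. Dok2, an adaptor that binds activated TEK, was at 268 and 299.6 FPKM in deficient-labelled samples, above controls at 117, 127 and 26.6 FPKM (log2 fold change 1.93, limma, adjusted p = 0.496). Of the 16 genes listed for the angiopoietin-Tie pathway, 10 were tested and none passed. They comprised 3 positive and 7 negative values with a median log2 fold change of -0.19.

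Eng was the highest of the 8 genes on average. It stood at 114.4 and 48.4 FPKM in deficient-labelled samples, against 173.4, 237.0 and 165.5 FPKM in the controls. Both deficient-labelled libraries were below the lowest control, and deficient-labelled replicate 2 was well below replicate 1. Its log2 fold change was -1.33 (SE 0.40, limma, adjusted p = 0.439), and it was -0.72 without deficient-labelled replicate 2 and -1.95 without deficient-labelled replicate 1. Eng shares 61 exon bases with Fpgs, a protein-coding gene on the other strand in the GENCODE M21 annotation. Fpgs has no value here, and no source used here says whether counting used strand. Acvrl1 (ALK1), the type I receptor that works with endoglin in endothelium, was at 4.59 and 6.22 FPKM in deficient-labelled samples, while in the controls it was listed at 0, 0 and 0.0132 FPKM. Bmpr2, the type II partner, was listed at 0.885 FPKM or less in every library and was not tested. Tgfbr2 overlapped between groups, at 8.45 and 25.2 FPKM in deficient-labelled samples and at 8.79, 17.1 and 14.6 FPKM in the controls (limma, adjusted p = 0.955). Tgfbr3 (betaglycan), the relative of endoglin, was at 28.4 and 19.9 FPKM in deficient-labelled samples, above controls at 13.1, 14.0 and 16.6 FPKM (log2 fold change 0.68, limma, adjusted p = 0.704). Gipc1, which binds the cytoplasmic tail of endoglin, overlapped, at 25.6 and 71.1 FPKM in deficient-labelled samples and 77.4, 76.8 and 48.8 FPKM in the controls. Of 25 genes listed around TGF-beta and BMP signalling, 16 were tested, with 9 positive and 7 negative values, a median of 0.12 and none past the threshold.

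**Figure D2:**
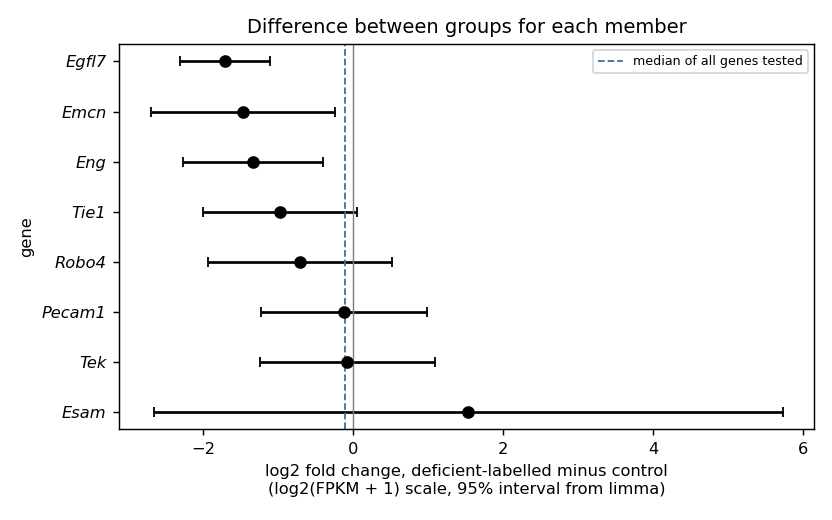
Log2 fold change of each gene, deficient-labelled minus control, with its 95% interval from limma on the log2(FPKM + 1) scale; the dashed line is the median of all genes tested (-0.10). Egfl7 has the lowest value and the narrowest interval (-2.30 to -1.11), and Esam the widest (-2.66 to 5.73).

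Robo4, which stabilises vessels and takes part in HSC homing to the marrow, was at 11.3 and 9.39 FPKM in deficient-labelled samples, against 11.05, 20.8 and 22.7 FPKM in the controls. The groups overlapped through control replicate 1 alone. For Robo4 the log2 fold change was -0.70 (SE 0.53, limma, adjusted p = 0.732), and -1.01 without control replicate 1. Robo1, a guidance receptor of the same family, was listed at 0 in both deficient-labelled samples, and stood at 0.607, 1.95 and 1.92 FPKM in the controls, too low on average to be tested. Vasp and Pxn, cytoskeletal partners and the most highly expressed genes of the SLIT-ROBO list, had group means closer together than either SD. Vasp was at 41.4 ± 21.5 FPKM in deficient-labelled and 43.7 ± 9.42 FPKM in control libraries, and Pxn at 34.1 ± 3.20 FPKM in deficient-labelled and 33.2 ± 5.59 FPKM in control libraries (SD, n = 2 and 3). Of the 15 genes on that list 7 were tested, with 5 positive and 2 negative values, a median of 0.16 and none past the threshold.

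Egfl7 showed the clearest separation of the 8. It was at 54.3 and 57.5 FPKM in deficient-labelled samples, against 203.6, 172.1 and 179.1 FPKM in the controls. The deficient-labelled libraries were close to each other, the controls were close to each other, and a wide gap lay between them. The mean of 55.9 ± 2.20 FPKM in deficient-labelled libraries was 0.302 times the control mean of 184.9 ± 16.6 FPKM (SD, n = 2 and 3). The log2 fold change of Egfl7 was -1.71 (SE 0.26), and its p-value of 2.15e-04 ranked 10 among 10570 genes, with an adjusted p of 0.227 (limma). Its position among the genes tested was the percentile 81.0 and 84.0 in deficient-labelled samples, against 95.8, 94.6 and 95.1 in the controls. Leaving out any 1 library gave log2 fold changes between -1.75 and -1.63. The ratio of Egfl7 to Tek within a library was 4.33 and 5.39 in deficient-labelled samples, against 17.8, 11.98 and 16.1 in the controls, a comparison chosen after the values were seen.

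Egfl7 shares 64 exon bases with the 3-prime neighbour Agpat2 on the other strand in the GENCODE M21 annotation, and no source used here says whether counting used strand. It also shares 264 exon bases with Gm20532, a protein-coding gene on the same strand that has no value in the table, so reads from these bases cannot be assigned to one of them even with strand. Agpat2, an acyltransferase of lipid synthesis, was at 38.3 and 49.9 FPKM in deficient-labelled samples, against 41.3, 39.5 and 51.9 FPKM in the controls, so its groups overlapped (log2 fold change -0.0058, limma, adjusted p = 0.998). EGFL7 binds NOTCH receptors and integrin alpha-v beta-3. Of 17 genes listed for these partners, 8 were tested, with 3 positive and 5 negative values, a median of -0.14 and none past the threshold. Of the 8 tested, 3 lay below every control, where 15.9% of all genes tested did, and 1 above (Itgb3), where 10.2% did. Those below were Notch2, Notch3 and the NOTCH ligand Jag2, named after their values were seen. Notch2 was at 7.12 and 7.95 FPKM in deficient-labelled samples, against 17.5, 12.6 and 8.36 FPKM in the controls (log2 fold change -0.64, limma, adjusted p = 0.769). Notch3 was listed at 0 in both deficient-labelled samples, and was at 1.45, 3.64 and 3.08 FPKM in the controls. Jag2 was nearly level with the lowest control, at 2.79 and 2.72 FPKM in deficient-labelled samples, against 18.0, 2.86 and 2.79 FPKM in the controls. Notch1 overlapped between groups, at 4.94 and 4.85 FPKM in deficient-labelled samples and 2.04, 1.51 and 18.2 FPKM in the controls. Itgb3, the integrin subunit, was at 38.4 and 33.5 FPKM in deficient-labelled samples, above controls at 17.7, 2.15 and 3.09 FPKM (log2 fold change 2.57, limma, adjusted p = 0.468). Rbpj, the DNA-binding effector of NOTCH, overlapped, at 15.3 and 9.68 FPKM in deficient-labelled samples and 22.2, 11.5 and 12.1 FPKM in the controls.

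Of the adhesion molecules, Pecam1 (CD31), which leukocytes and platelets also carry, was at 12.9 and 27.6 FPKM in deficient-labelled samples, against 21.5, 22.5 and 18.4 FPKM in the controls. One deficient-labelled library was below every control and the other above every control. The log2 fold change of Pecam1 was -0.12, with a 95% interval of -1.23 to 0.98 (limma, adjusted p = 0.956), and it was -0.64 without deficient-labelled replicate 2 and 0.40 without deficient-labelled replicate 1. Pecam1 was the only one of the 8 whose 2 deficient-labelled libraries lay on opposite sides of all 3 controls.

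Esam, an adhesion molecule by which HSCs can be isolated, was at 64.7 and 49.3 FPKM in deficient-labelled samples, and at 74.0, 103.0 and 0 FPKM in the controls. The 0 in control replicate 3 is a listed value that may be a failed estimate. In that library 656 genes are listed at 0, the fewest of the 5 libraries. With it the log2 fold change was 1.54 (SE 1.80, limma, adjusted p = 0.833), and without that library it was -0.62 (limma, adjusted p = 0.770), with both deficient-labelled libraries below the other 2 controls. The direction for Esam is therefore set by 1 listed value.

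Esam and Robo4 lie close together on mouse chromosome 9, with 2 protein-coding genes, Robo3 and Msantd2, between them in RefSeq (GRCm38.p6). Robo3, a guidance receptor, was at 12.2 and 4.69 FPKM in deficient-labelled samples and at 0.674, 0.0649 and 10.1 FPKM in the controls, with overlapping groups. Msantd2 was at 0.826 and 1.08 FPKM in deficient-labelled samples, below controls at 5.43, 2.28 and 2.90 FPKM (log2 fold change -1.16, limma, adjusted p = 0.709).

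The junction relatives of ESAM also varied. Jam3 was at 7.34 and 2.62 FPKM in deficient-labelled samples, below controls at 11.5, 11.02 and 13.4 FPKM (log2 fold change -1.24, limma, adjusted p = 0.640). F11r (JAM-A) was at 15.5 and 20.6 FPKM in deficient-labelled samples, against 57.5, 17.6 and 41.1 FPKM in the controls, with overlap through control replicate 2. Jam2 overlapped widely, at 3.52 and 2.10 FPKM in deficient-labelled samples and 8.77, 0.0127 and 2.69 FPKM in the controls. The most highly expressed genes of the junction and adhesion list were Cd47, the ligand of SIRP-alpha, at 312.7 ± 24.0 FPKM in deficient-labelled and 357.6 ± 29.9 FPKM in control libraries, and Ptpn6, a phosphatase that docks on PECAM1, at 173.8 ± 8.34 FPKM in deficient-labelled and 159.5 ± 13.5 FPKM in control libraries (SD, n = 2 and 3). Of the 25 genes on that list 18 were tested, with 8 positive and 10 negative values, a median of -0.12 and none past the threshold.

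Emcn, an anti-adhesive sialomucin that marks sinusoidal vessels and HSCs, was at 6.33 and 5.63 FPKM in deficient-labelled samples, against 13.3, 20.4 and 22.5 FPKM in the controls. The deficient-labelled libraries were close together and both below the lowest control. The mean of 5.98 ± 0.495 FPKM in deficient-labelled libraries was 0.319 times the control mean of 18.7 ± 4.85 FPKM (SD, n = 2 and 3). For Emcn the log2 fold change was -1.47 (SE 0.53, limma, adjusted p = 0.505), and the fold change understates that of the means because the pseudocount of 1 FPKM weighs on low values.

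Cd34, another sialomucin of HSCs, progenitors and endothelium, was at 41.7 and 26.5 FPKM in deficient-labelled samples, against 210.0, 140.6 and 187.3 FPKM in the controls (log2 fold change -2.38, SE 0.33, limma, adjusted p = 0.208). Podxl (podocalyxin), of the same family, overlapped between groups, at 1.34 and 0.613 FPKM in deficient-labelled samples and 6.11, 1.02 and 3.36 FPKM in the controls. Cd24a and Muc13, the most highly expressed of the sialomucin list on average over the 5 libraries, also overlapped, while in the controls alone Cd34 had the highest mean. Cd24a was at 117 and 249 FPKM in deficient-labelled samples and 88.4, 124 and 115 FPKM in the controls, and Muc13 at 142 and 106 FPKM in deficient-labelled samples and 163, 139 and 105 FPKM in the controls. Of 14 genes on the list 11 were tested, with 5 positive and 6 negative values, a median of -0.12 and none past the threshold.

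In the order of levels, Eng (81.4 ± 46.6 FPKM), Esam (64.7 and 49.3 FPKM) and Egfl7 (55.9 ± 2.20 FPKM) led in deficient-labelled samples, followed by Tie1, Pecam1, Tek, Robo4 and Emcn. There Eng, Esam and Egfl7 did not differ beyond their spread. In deficient-labelled replicate 2, Eng, at 48.4 FPKM, was below both Egfl7 and Esam. Tie1 and Pecam1 did not differ beyond their spread either, nor did Tek and Robo4, and Emcn lay below the others. In the controls Eng (192.0 ± 39.2 FPKM) and Egfl7 (184.9 ± 16.6 FPKM) led, their difference being smaller than either SD, and Esam followed where it was not at 0 (SD, n = 2 and 3). Tie1 was next in the controls at 51.0 ± 17.8 FPKM, above all values of the 4 lowest genes. Pecam1, Emcn, Robo4 and Tek, between 12.3 and 20.8 FPKM on average in the controls, overlapped in their ranges apart from Pecam1 and Tek. Emcn was the lowest of the 8 in both deficient-labelled libraries, while its rank in the controls was 6, 7 and 5.

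Over the 5 libraries the patterns of Tie1 and Robo4 were the most alike within the group, with a root mean square difference of 0.30 between their centred log2(FPKM + 1) values, followed by Eng and Tie1 (0.31) and by Egfl7 and Emcn (0.35). Among 8339 other genes averaging 5 FPKM or more, the pattern nearest to Egfl7 was that of Parp8, at 3.09 and 4.30 FPKM in deficient-labelled samples against 13.6, 13.1 and 14.2 FPKM in the controls (difference 0.13), and then Dcun1d1 (0.14). Nearest to Eng were Dscc1 (0.12) and Runx2 (0.12), to Tie1 Nfic and Nsun3 (both 0.12), and to Emcn Rif1 (0.097) and Scly (0.11). Nearest to Robo4 were Mllt3 (0.078) and Zfp644 (0.085), to Tek Zfand6 (0.030) and Rnh1 (0.041), and to Pecam1 Pcyox1 (0.076) and Gnptab (0.077). The genes nearest to Esam, Gpaa1 and Osgep, were likewise listed at 0 in control replicate 3. With 5 libraries and 8339 candidates, a near pattern can be found for most genes.

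**Figure D3:**
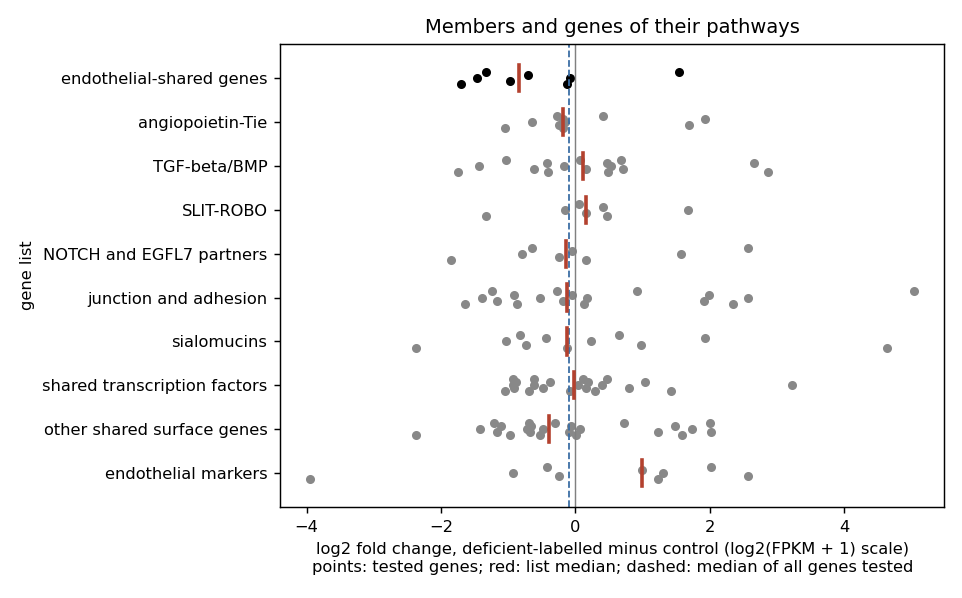
Log2 fold change, deficient-labelled minus control, of every tested gene in the 8-gene group (black) and in lists of related genes (grey), with list medians in red and the median of all genes tested dashed. The 8 genes have a median of -0.84, and the related lists have medians from -0.39 (other shared surface genes) to 0.996 (endothelial markers).

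The transcription factors that HSCs and endothelium share had 11 positive and 11 negative values among 22 tested of 25 listed, with a median log2 fold change of -0.017 and none past the threshold. The most highly expressed were Lmo2, a bridging factor of the TAL1 complex, at 435 ± 134 FPKM in deficient-labelled and 559.8 ± 85.8 FPKM in control libraries, and Lyl1, a bHLH factor, at 228 ± 52.9 FPKM in deficient-labelled and 205.2 ± 41.4 FPKM in control libraries (SD, n = 2 and 3). Other surface genes shared by HSCs and endothelium comprised 9 positive and 15 negative values among 24 tested of 30 listed, with a median of -0.39 and none past the threshold. The most highly expressed on average over the 5 libraries were Adgrg1 (GPR56), an adhesion receptor, at 537 ± 146 FPKM in deficient-labelled and 651.6 ± 31.4 FPKM in control libraries, and the tetraspanin Cd63, at 303 ± 124 FPKM in deficient-labelled and 469.8 ± 72.5 FPKM in control libraries (SD, n = 2 and 3). Cd9, another tetraspanin, had the highest mean of that list in deficient-labelled samples, at 692 and 448 FPKM, above controls at 203, 172 and 135 FPKM (log2 fold change 1.73, SE 0.31, limma, adjusted p = 0.345).

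Markers that define endothelial cells themselves were mostly low. Of 25 listed, 13 were in the table and 9 were tested, with 5 positive and 4 negative values and none past the threshold. Between 5 and 9 of the 13 were under 1 FPKM in each library. Kdr (VEGF receptor 2) was at 0.699 and 0.967 FPKM in deficient-labelled samples and at 0.0124, 0 and 0 FPKM in the controls. The summed level was 121 and 156 FPKM in deficient-labelled samples, against 82.6, 72.9 and 72.1 FPKM in the controls. Single markers went either way. Of the 9 tested, 2 lay above every control, where 10.2% of all genes tested did, and 1 below, where 15.9% did. The 2 above were Aqp1 and Cldn5 (claudin 5). Cldn5 was at 10.7 and 9.19 FPKM in deficient-labelled samples, against 0.054, 0.145 and 4.11 FPKM in the controls (log2 fold change 2.57, SE 0.94, limma, adjusted p = 0.510). The one below was Ecscr, an endothelial surface protein, listed at 0 and 0.107 FPKM in deficient-labelled samples, against 24.1, 6.15 and 22.7 FPKM in the controls (log2 fold change -3.95, SE 0.82, limma, adjusted p = 0.387). Its fold change was further from 0 than that of any of the 8 genes. In deficient-labelled samples most of that sum came from Aqp1, which erythroid cells also express, at 62.0 and 98.9 FPKM in deficient-labelled samples and 40.4, 39.2 and 19.1 FPKM in the controls, and from Vwf, which megakaryocytes also express, at 44.1 and 13.3 FPKM in deficient-labelled samples and 10.2, 14.7 and 6.20 FPKM in the controls.

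**Figure D4:**
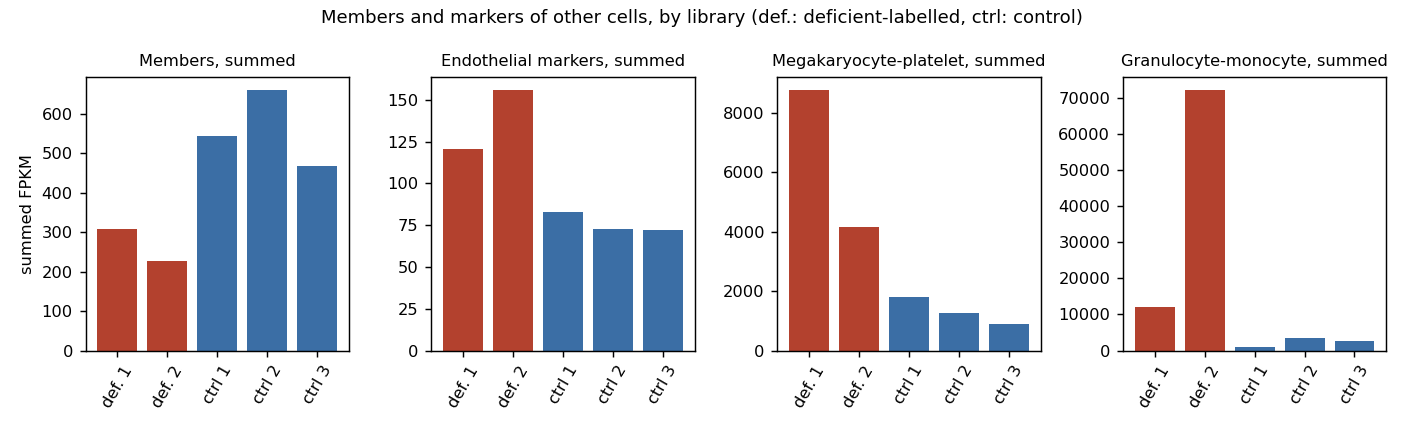
Summed FPKM of the 8 genes, of endothelial markers, of megakaryocyte-platelet markers and of granulocyte-monocyte markers in each library, deficient-labelled in red and control in blue, each panel with its own axis from 0. The 8 genes sum to 309 and 227 FPKM in deficient-labelled samples and to 468 to 660 FPKM in the controls, while the marker sums of the other cells are higher in deficient-labelled samples.

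Lists of markers of other blood cells and of stroma were set beside these values. The 19 granulocyte-monocyte markers tested of 20 listed were all positive (median 4.08) and summed to 11986 and 72216 FPKM in deficient-labelled samples, against 1012, 3477 and 2712 FPKM in the controls. That is 1.75% and 12.1% of all FPKM in deficient-labelled samples, against 0.164%, 0.541% and 0.417% in the controls. The 18 megakaryocyte-platelet markers tested of 20 listed, a lineage that expresses Pecam1 and Esam, had 14 positive and 4 negative values (median 1.07) and summed to 8753 and 4156 FPKM in deficient-labelled samples, against 1806, 1267 and 901 FPKM in the controls. Erythroid markers, 11 tested of 19, were all positive (median 1.97, sums of 1014 and 1689 FPKM in deficient-labelled samples against 1094, 1107 and 833 FPKM in the controls). Lymphoid markers, 7 tested of 18, had 5 positive and 2 negative values (median 1.58, sums of 370 and 352 FPKM in deficient-labelled samples against 106, 154 and 85.1 FPKM in the controls). Stromal markers, 5 tested of 14, were all positive (median 1.92, sums of 30.2 and 63.2 FPKM in deficient-labelled samples against 12.5, 5.48 and 7.56 FPKM in the controls). No marker of these lists passed the threshold.

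The 8 genes stood beside these markers in different ways. Eng, Tie1, Esam, Robo4, Tek and Emcn were lower in deficient-labelled replicate 2 than in replicate 1, while Pecam1 and Egfl7 were higher. The differences were small for Robo4, Tek, Emcn and Egfl7. Granulocyte-monocyte markers were highest in replicate 2, and megakaryocyte-platelet markers in replicate 1. Egfl7 and Emcn were nearly level in both deficient-labelled libraries, with log2 fold changes of -1.74 and -1.40 without replicate 2. After rescaling each library to its FPKM total without the granulocyte-monocyte, erythroid and megakaryocyte-platelet lists, the log2 fold changes were -1.60 for Egfl7, -1.38 for Emcn, -1.23 for Eng and -0.87 for Tie1. Those lists held 3.18% and 13.0% of all FPKM in deficient-labelled samples, and 0.634% to 0.911% in the controls. The rescaling takes out only the listed genes. Any other RNA of such cells stays in the total, so it is no correction for other cell types. The part of other cell types in the values of the 8 genes was not tested.

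**Figure D5:**
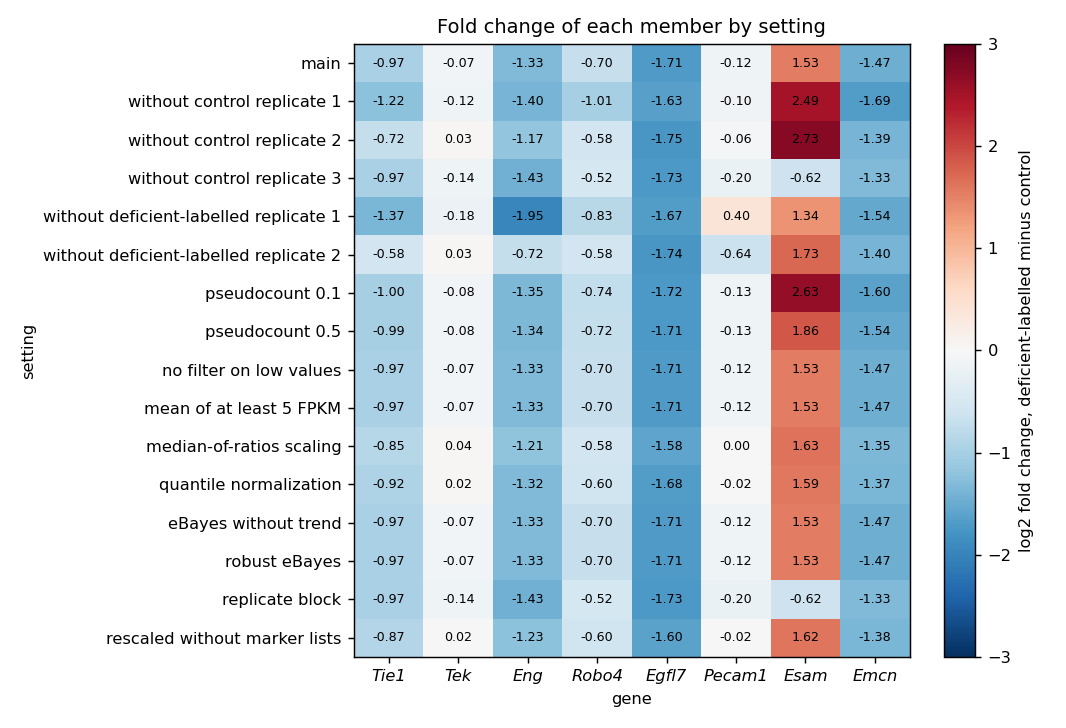
Log2 fold change of each gene, deficient-labelled minus control (columns; colour scale and printed values), as reported (top row, main) and under each alternative (other rows). Egfl7, Eng, Tie1, Robo4 and Emcn are negative in every row, Tek and Pecam1 stay near 0 or turn with single libraries, and Esam turns negative wherever control replicate 3 is left out or absorbed by the replicate block.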

How the data were processed

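Per the labels, RNA-seq libraries were made from 2 Tle1/3/4-deficient and 3 control HSC samples, grouped by their titles. The authors deposited 1 table of FPKM per gene symbol. The submitters' processing notes name TopHat, edgeR and mm9, with no version or role. No source used here gives the annotation, the filters or the tool behind the FPKM. Genes averaging 1 FPKM or more were tested with limma 3.58.1 (R 4.3.3) on log2(FPKM + 1) (group as the only term, eBayes with trend, two-sided, Benjamini-Hochberg over all genes tested, threshold 0.05), and the fit was tested on simulated data. FPKM is relative to the library total, so very abundant genes lower the others, and with no counts deposited, counting error has no interval.

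Named genes were the 8 members, their direct pathway partners, the 2 most highly expressed genes of each pathway or endothelial list, the targeted and gate genes, and the 2 nearest patterns per member. Some genes this rule names are not reported here, and Kdr, Agpat2, Robo3 and Msantd2 are named for other reasons. Ecscr, Cldn5, Notch1, Notch2, Notch3, Jag2 and Cd9 were chosen after their values were seen. Some genes (14) stand on more than 1 list, among them Vwf. The members and lists were chosen with earlier results of these data known. Alternatives covered the pseudocount, filter, scaling, variance model, replicate number, threshold and each library left out. Sequences came from RefSeq and overlaps from GENCODE M21, matched by symbol. Python 3.11.15 with pandas 2.3.3 and matplotlib 3.10.9 was used for these and the plots.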

Additional observations from a re-analysis of the deposited data

How the results depend on the processing

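None of the 8 genes passed the threshold under any alternative. Over all genes the count past it was 2, and it was 0 with a pseudocount of 0.1 or 0.5 FPKM or no filter on low values, 1 with eBayes without trend, 4 with median-of-ratios scaling (3 higher and 1 lower, against 1 and 1), 5 with robust eBayes, 5 at a threshold of 0.1, and 0 to 5 when 1 library was left out. Median-of-ratios scaling moved the median of all genes by 0.12, and the median of the 8 relative to it was -0.73 with either scaling. The median log2 fold change of the 8 genes ranged from -1.11 to -0.61 when 1 library was left out, at -0.65 without control replicate 2, -1.10 without deficient-labelled replicate 1 and -0.61 without deficient-labelled replicate 2. From 3 to 6 of the 8 lay below every control, with 3 under median-of-ratios scaling, where 12.5% of all genes did, and 6 without deficient-labelled replicate 1, where 33.5% did. The rescaling without marker lists, which gave 5, the counts below every control under other settings and the run without Esam were added after the data were seen.

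Egfl7, Eng, Tie1, Robo4 and Emcn were negative under all 15 alternatives each. Tek turned positive at 0.043 with median-of-ratios scaling, 0.024 with quantile normalization and 0.021 after rescaling without marker lists, and ran from -0.18 to 0.034 when 1 library was left out. Pecam1 was at 0.0018 with median-of-ratios scaling and ran from -0.64 to 0.40 when 1 library was left out. Esam ran from -0.62 to 2.73 when 1 library was left out and was -0.62 with the replicate block. A fit without 1 deficient-labelled library assumes that the lone library varies like the controls.

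Replicate numbers recur in both groups, but nothing says that they pair the samples. Deviations of same-numbered libraries correlated at 0.035 and 0.0069 across genes, and only 2 pairs exist. The deviations of the 2 deficient-labelled libraries from their own mean are mirror images, so these are not 2 separate checks. With the replicate number as a block, 22 genes passed, none of them among the 8, and the estimates equal those without control replicate 3. With 2 libraries against 3 and no counts, small differences were not detectable, and large ones could also miss the threshold. Cd34, at a log2 fold change of -2.38, and Egfl7, at -1.71, did not pass (limma, adjusted p = 0.208 and 0.227).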
